A study of Mus musculus with 6 samples.

Results

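The nuclear genes of oxidative phosphorylation (OXPHOS) were examined in mouse MLL-AF9 leukemia cells after FF-10501-01. Entries were chosen by gene symbol, namely those beginning with Nduf, Uqcr, Cox4 to Cox8 or Atp5, and Sdha, Sdhb, Sdhc, Sdhd, Cyc1 and Cycs. The expression table lists 26384 entries, of which 92 matched, and 85 of them had a mean of at least 1 FPKM (fragments per kilobase of transcript, corrected for library size) over the 6 libraries. They were 36 complex I subunits, 4 complex I assembly factors with a Nduf symbol, 4 complex II subunits, 10 entries of complex III with cytochrome c, 13 complex IV subunits, 15 complex V subunits and 3 others. Among the others, Atp5s and Atp5sl are older names of Dmac2l and Dmac2, and Cox4nb is an older name of Emc8, which is not a respiratory gene and matched by its letters only. The entry for Sdha is merged with Pdcd6, so its value cannot be assigned to Sdha alone.

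The respiratory chain sits in the inner mitochondrial membrane. Complexes I and II pass electrons from NADH and succinate to ubiquinone, complex III passes them on to cytochrome c, and complex IV hands them to oxygen. Complexes I, III and IV pump protons, and complex V (ATP synthase) uses the resulting gradient to make ATP. Most subunits are encoded in the nucleus and imported, while a small set is encoded in mitochondrial DNA and has 0 entries in this table. Acute myeloid leukemia cells are known for a strong reliance on this pathway.

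The RNA was that of GFP+ cells from leukemic mice given FF-10501-01 (3 libraries, 160 mg/kg on 2 consecutive days) or vehicle (3 libraries, same schedule). The drug blocks IMPDH, the enzyme that limits the making of guanine nucleotides. In both groups the cells were wild-type bone marrow progenitors transduced with MLL-AF9 and GFP, passed serially through mice and grown in C57BL/6J recipients, and marrow was taken 48 h after the first dose according to the sample labels, while the RNA-Seq methods of the study state a shorter time after treatment and do not say from which dose. The cells are thus a passaged leukemia driven by a transduced oncogene, and the columns of the table could be tied to a group but not to 1 mouse.

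Depth relative to vehicle replicate 1, estimated from the steps between low values, was 0.983 to 1.11 in FF-10501-01 libraries and 1.01 and 1.25 in the other vehicle libraries. Between libraries, log2 values correlated at a Pearson's r of 0.979 to 0.995. All 9 leukemia markers looked for were measured, and 4 of them passed the test used throughout (limma on log2(FPKM + 1), adjusted p under 0.05). The share over all entries tested, for this and the lists below, was 14.9% (7.43% higher, 7.46% lower). Flt3 fell to 9.32 FPKM in FF-10501-01 cells against 43.2 FPKM in vehicle cells (log2 fold change -2.08, adjusted p = 0.00847, limma). Kit fell and Itgam rose. The merged entry of Hoxa9 and Mir196b rose close to the threshold (log2 fold change 0.27, adjusted p = 0.0465, limma). Meis1 averaged 63.7 FPKM in FF-10501-01 cells and 66.9 FPKM in vehicle cells and did not pass. The study, using Cuffdiff, reported no effect of the drug on HoxA9 or Meis1. Of 9 mature neutrophil markers tested 7 were higher, with a summed level of 957 to 1940 FPKM in FF-10501-01 libraries against 562 to 616 FPKM in vehicle libraries. The macrophage list summed to 76.2 to 101 FPKM in FF-10501-01 libraries against 56.1 to 69.5 FPKM in vehicle libraries. Most came from Vcam1 (66.4 FPKM in FF-10501-01 cells and 43.4 FPKM in vehicle cells) and Slc40a1, which both rose. Cd163, read from the most abundant of several entries with that symbol, averaged 0.429 FPKM in FF-10501-01 cells and 1.98 FPKM in vehicle cells and did not pass. C1qa and C1qc, below a mean of 1 FPKM and not tested, were higher without overlap, while C1qb, also not tested, overlapped. The megakaryocyte list summed to 15.7 to 24.4 FPKM in FF-10501-01 libraries against 10.0 to 11.04 FPKM in vehicle libraries, with both of its 2 tested entries higher and Gp6 listed at 0 in all of them. The erythroid list summed to 18.9 to 23.3 FPKM in FF-10501-01 libraries against 29.3 to 40.3 FPKM in vehicle libraries, mostly from Tfrc (20.1 FPKM in FF-10501-01 cells and 28.6 FPKM in vehicle cells, overlapping), with Hbb-b1, Slc4a1 and Car1 listed at 0 in all of them. In limma 0 of its 2 tested entries passed, and both had an unadjusted p under 0.05. The B cell list summed to 5.71 to 6.66 FPKM in FF-10501-01 libraries against 8.24 to 9.30 FPKM in vehicle libraries. Its only tested entry, Cd79b, fell (adjusted p = 0.0214, limma), and Pax5 and Blk were listed at 0 in all libraries. No tested entry passed in the T and NK cell list or in the stromal list. The markers named here were picked from their lists after their values were seen, and the part of these shifts in the OXPHOS values was not tested. In bulk RNA, fewer cells of a type and less RNA per cell cannot be told apart.

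OXPHOS transcripts as a whole were at nearly the same level in both groups. The 85 entries together summed to 11791, 12225 and 11888 FPKM in FF-10501-01 libraries and to 11940, 12483 and 11997 FPKM in vehicle libraries. As a share of all FPKM this was 2.220%, 2.236% and 2.209% in FF-10501-01 cells and 2.197%, 2.262% and 2.219% in vehicle cells, and the groups overlapped on both scales. The median log2 fold change of the entries was -0.02, with a range of -0.26 to 0.56, beside -0.01 over all 11004 entries tested. The median size of the change, whatever its sign, was 0.0714 on the log2 scale for OXPHOS entries and 0.109 over all entries.

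Of the 85 entries, 3 rose (Cox7a1, Ndufaf3 and Uqcrb), 6 fell (Ndufa10, Atp5a1, Atp5g3, Uqcr10, Atp5g2 and Cox7a2l) and 76 did not pass the test (limma on log2(FPKM + 1), two-sided, adjusted p under 0.05 over all entries tested). This is 10.6% of the OXPHOS entries, whereas 14.9% of all entries tested passed (7.43% higher, 7.46% lower). After rescaling to TPM, 5 OXPHOS entries were higher and 5 lower, and over all entries 1008 were higher and 667 lower, compared with 818 higher and 821 lower on FPKM as deposited. The 2 groups stood apart, with no shared range, for 36.5% of the OXPHOS entries (11 higher, 20 lower), near the 38.8% over all entries (17.6% higher, 21.2% lower). None of the 9 calls was kept when vehicle replicate 1 was left out, and none when FF-10501-01 replicate 3 was left out. Of all entries, 3.24% passed in limma in the first case and 1.98% in the second. An unadjusted p under 0.05 was then found for 5 higher and 12 lower OXPHOS entries in the first case and for 6 higher and 9 lower in the second, or 20.0% and 17.6% of them beside 25.3% and 24.5% of all entries. On all 6 libraries 27 OXPHOS entries had such a p (31.8%), near the 32.8% of all entries. With no filter on low FPKM, and likewise with eBayes lacking a trend, Ndufa10 and Atp5a1 kept their calls and the other 7 lost them (adjusted p = 0.0558 to 0.0939 and 0.0503 to 0.0870, limma).

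The intervals of most OXPHOS entries were narrow. The 95% interval of the log2 fold change lay between -0.5 and 0.5 for 84 of 85 OXPHOS entries and between -0.3 and 0.3 for 74 of them. Of all 11004 entries, 9405 and 6300 did so, but levels differed, with a median of 112 FPKM for OXPHOS entries and 15.7 FPKM over all. At 100 FPKM or more, 91.5% of OXPHOS entries and 78.5% of all entries lay within -0.3 and 0.3. The shares were 86.4% and 76.5% between 50 and 100 FPKM, and 62.5% and 74.5% between 25 and 50 FPKM. Among entries at 100 FPKM or more, 12.8% of 47 OXPHOS entries passed, against 26.7% of 904 entries of that level. Between 50 and 100 FPKM, 4.55% of 22 OXPHOS entries passed, against 20.0% of 1194 entries. Between 25 and 50 FPKM it was 12.5% of 8 OXPHOS entries against 14.8% of 1850 entries. From 5 to 25 FPKM, 0% of 6 OXPHOS entries passed, against 14.0% of 4682 entries. Below 5 FPKM it was 50% of 2 OXPHOS entries against 9.73% of 2374 entries. These shares are given as a description, and the differences between them were not tested.

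**Figure D1:**
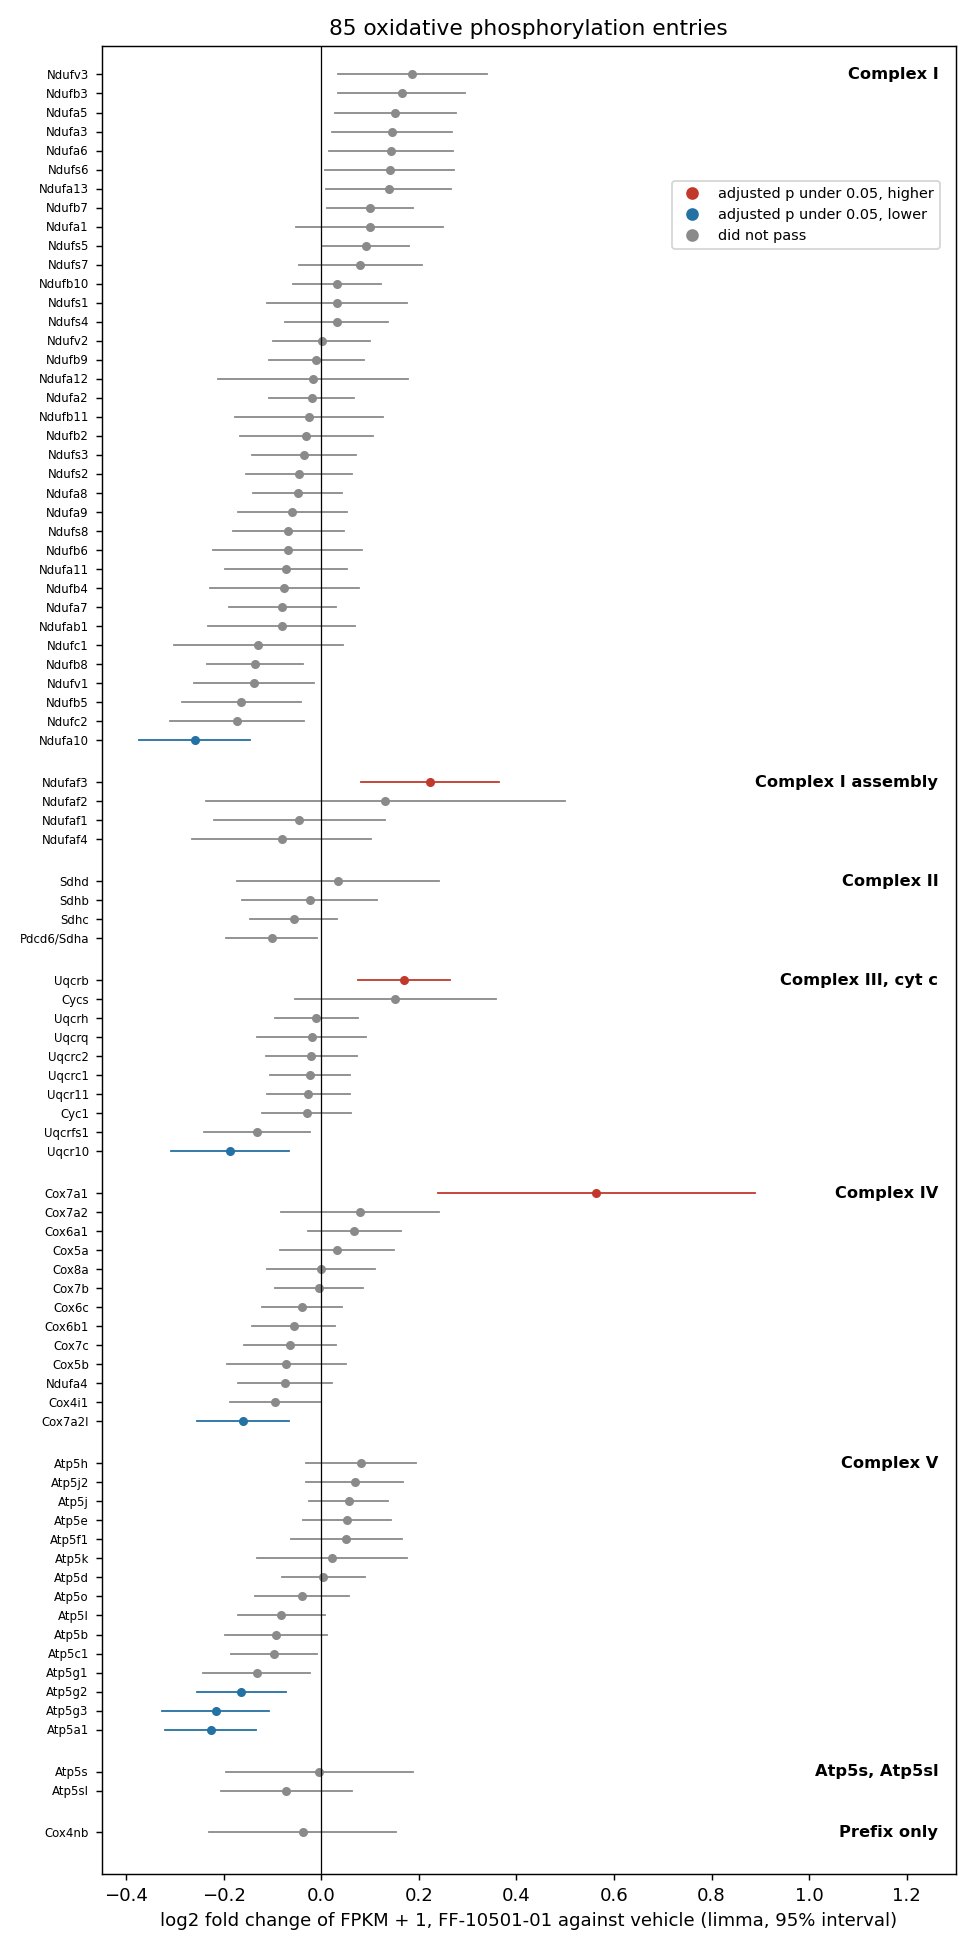
Log2 fold change of FPKM + 1, FF-10501-01 against vehicle, for the 85 entries grouped by complex (points, with 95% intervals from limma as lines, 3 libraries per group). The 3 entries that rose are red, the 6 that fell are blue, and the 76 grey entries did not pass.

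**Figure D2:**
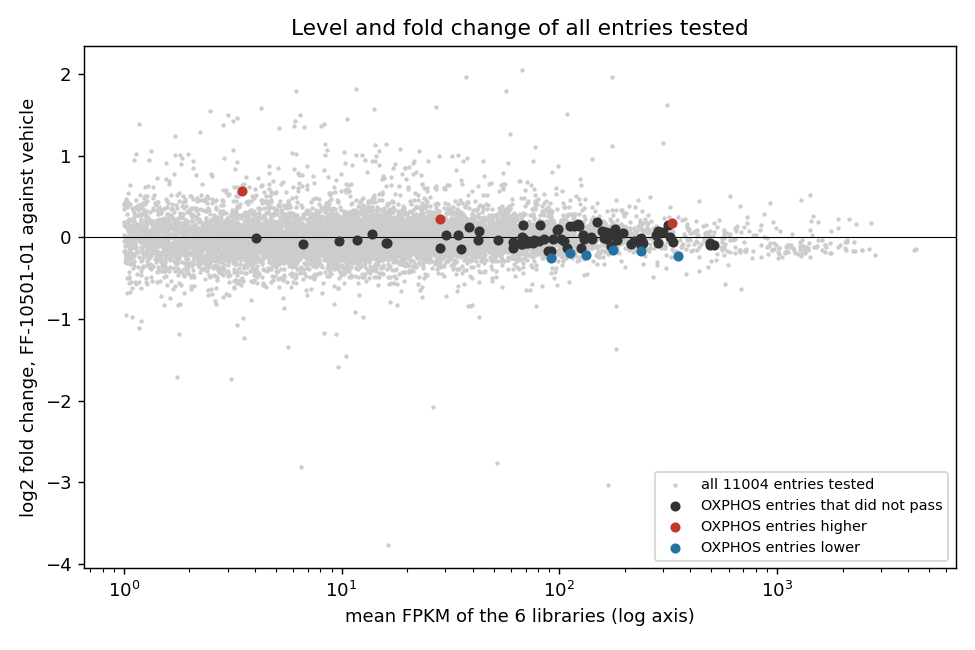
Log2 fold change of FPKM + 1 against the mean level over the 6 libraries (FPKM, log axis) for the OXPHOS entries and for all 11004 entries tested. The OXPHOS entries range in mean level from 3.49 to 515 FPKM and in log2 fold change from -0.26 to 0.56.

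Complex I, the NADH dehydrogenase, had 1 subunit lower and 0 higher among 36 in the limma test (2.78%, beside 14.9% of all entries). It had 14 subunits at an unadjusted p under 0.05, a p that 32.8% of all entries had. Its summed level was 3388, 3552 and 3426 FPKM in FF-10501-01 libraries and 3330, 3524 and 3365 FPKM in vehicle libraries, and the groups overlapped. The median log2 fold change was -0.02 on all 6 libraries and 0.0057 without vehicle replicate 2. None of the 7 core subunits measured, which carry the flavin and the iron-sulfur clusters, passed in limma, with 1 at an unadjusted p under 0.05. Of the 29 accessory subunits, 7 lay above and 5 below every vehicle library (41.4%, beside 38.8% of all entries), and 1 passed.

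Ndufa10, an accessory subunit related to nucleoside kinases, was the complex I subunit that fell. It measured 84.6, 86.4 and 78.0 FPKM in FF-10501-01 cells against 103, 96.8 and 98.9 FPKM in vehicle cells, so every treated library lay below every vehicle library. Its log2 fold change was -0.26 (SE 0.0496, adjusted p = 0.0180, limma). The gene lies on chromosome 1 (GRCm38, 92439010 to 92473860, minus strand). The adjusted p was 0.0614 with vehicle replicate 1 left out and 0.0621 with FF-10501-01 replicate 3 left out, and the call was kept when any other library was left out.

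Ndufa3, a small membrane subunit and the most abundant complex I transcript in FPKM, did not pass. Its level was 316, 357 and 318 FPKM in FF-10501-01 cells and 295, 308 and 291 FPKM in vehicle cells, without overlap. This gave a log2 fold change of 0.15 (SE 0.0538, adjusted p = 0.101, limma). It passed after rescaling to TPM and after quantile normalization, with a smallest adjusted p of 0.0380 in limma. Nearest to the threshold among the other subunits that did not pass were Ndufb8 (adjusted p = 0.0663, limma) and Ndufb5 (adjusted p = 0.0715, limma), both of the membrane arm and both named after their values were seen. Their log2 fold changes were -0.14 and -0.16.

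Assembly factors build complex I without remaining in it. Ndufaf3, which acts on the arm that binds ubiquinone, was the only one of 4 with a Nduf symbol that passed. Its level was 32.2, 28.2 and 31.5 FPKM in FF-10501-01 cells against 24.8, 26.2 and 27.1 FPKM in vehicle cells, and the groups did not overlap. On the log2 scale the fold change was 0.22 (SE 0.0618, adjusted p = 0.0465, limma). The adjusted p was 0.139 without vehicle replicate 1, 0.0721 without vehicle replicate 2, 0.0726 without vehicle replicate 3, 0.120 without FF-10501-01 replicate 1 and 0.146 without FF-10501-01 replicate 3. The call was also lost with a trend on transcript length removed (adjusted p = 0.0544, limma) and after quantile normalization (0.0520).

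Ndufaf3 lies on chromosome 9 (GRCm38, 108565537 to 108567434, minus strand), tail to tail with Impdh2, which encodes the main target enzyme of the drug. Exons of these 2 genes share 48 bases on opposite strands, and whether strand was used in counting is not given in the sources used here. Impdh2 measured 158, 165 and 162 FPKM in FF-10501-01 cells and 139, 182 and 160 FPKM in vehicle cells, so the groups overlapped (log2 fold change 0.02, adjusted p = 0.881, limma). Without vehicle replicate 1 its log2 fold change was -0.08. The share of Impdh2 reads in the Ndufaf3 values was not tested.

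Ndufaf2, the most abundant of the 4 assembly factors, averaged 40.6 ± 10.0 FPKM in FF-10501-01 cells and 36.5 ± 5.27 FPKM in vehicle cells (SD, n = 3 each). Its log2 fold change of 0.13 did not pass (adjusted p = 0.597, limma). FF-10501-01 replicate 2 stood apart at 52.2 FPKM, and without it the log2 fold change was -0.06.

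Complex II, the succinate dehydrogenase that also serves the citric acid cycle, had 0 of 4 entries past the limma threshold and 1 at an unadjusted p under 0.05. The 4 entries summed to 312, 316 and 299 FPKM in FF-10501-01 libraries and to 327, 330 and 315 FPKM in vehicle libraries, which overlapped. The merged entry of Pdcd6 and Sdha, which encodes the flavoprotein of the complex, was the most abundant. It averaged 166 ± 2.22 FPKM in FF-10501-01 cells and 178 ± 7.00 FPKM in vehicle cells (SD, n = 3 each), with a log2 fold change of -0.10 (adjusted p = 0.126, limma).

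Complex III, the cytochrome bc1 complex, and cytochrome c had 1 of 10 entries higher and 1 lower. This was 20.0% of them, beside 14.9% of all entries tested. Uqcrb, a small subunit near the ubiquinone-binding sites, rose. Its level was 336, 361 and 348 FPKM in FF-10501-01 cells against 303, 319 and 307 FPKM in vehicle cells, each treated library above each vehicle library. The log2 fold change was 0.17 (SE 0.0415, adjusted p = 0.0316, limma), and the gene lies on chromosome 13 (GRCm38, 66900617 to 66905378, minus strand). The adjusted p was 0.106 without vehicle replicate 1, 0.0898 without vehicle replicate 3, 0.0875 without FF-10501-01 replicate 2 and 0.101 without FF-10501-01 replicate 3.

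Uqcr10, another small complex III subunit, fell. It measured 99.1, 109 and 105 FPKM in FF-10501-01 cells against 126, 116 and 115 FPKM in vehicle cells, again without overlap. The log2 fold change was -0.19 (SE 0.0529, adjusted p = 0.0484, limma), and the gene lies on chromosome 11 (GRCm38, 4701973 to 4704342, minus strand). This call was lost without any 1 of the libraries, with adjusted p-values of 0.140, 0.0569 and 0.0743 without vehicle replicates 1, 2 and 3, and of 0.124, 0.0648 and 0.126 without FF-10501-01 replicates 1, 2 and 3. Rescaling to TPM (adjusted p = 0.0518, limma) or by the median of ratios (0.0533) also ended it.

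The other complex III entries did not pass. Uqcrh, the hinge protein and the most abundant of them, averaged 236 ± 6.78 FPKM in FF-10501-01 cells and 237 ± 2.12 FPKM in vehicle cells (SD, n = 3 each). Cyc1, the heme-carrying cytochrome c1, averaged 75.7 ± 1.47 FPKM in FF-10501-01 cells and 77.3 ± 1.87 FPKM in vehicle cells (log2 fold change -0.03, adjusted p = 0.642, limma). Cycs, the mobile carrier cytochrome c that also triggers apoptosis when released, measured 73.1, 70.7 and 70.8 FPKM in FF-10501-01 cells and 54.5, 71.7 and 67.9 FPKM in vehicle cells. Vehicle replicate 1 was the low one, the groups overlapped, and the log2 fold change of 0.15 did not pass (adjusted p = 0.275, limma).

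Complex IV, cytochrome c oxidase, had 1 of 13 subunits higher and 1 lower, both of the Cox7a family. This was 15.4% of them, near the 14.9% of all entries tested. The 13 entries summed to 3194, 3323 and 3292 FPKM in FF-10501-01 libraries and to 3336, 3449 and 3307 FPKM in vehicle libraries, which overlapped. Cox4i1, the ubiquitous form of subunit 4 and the most abundant complex IV transcript in FPKM, averaged 479 ± 19.3 FPKM in FF-10501-01 cells and 511 ± 10.6 FPKM in vehicle cells (SD, n = 3 each). Its log2 fold change of -0.09 did not pass (adjusted p = 0.149, limma).

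The Cox7a family has 3 members. Cox7a1, the form known from heart and skeletal muscle, was the least abundant OXPHOS entry kept and rose. It measured 5.28, 4.39 and 3.44 FPKM in FF-10501-01 cells against 2.196, 3.12 and 2.54 FPKM in vehicle cells, and the groups did not overlap. The ratio of means was 1.67, and the log2 fold change was 0.56 (SE 0.142, adjusted p = 0.0349, limma), which the added 1 FPKM makes smaller than the log2 of that ratio. The gene lies on chromosome 7 (GRCm38, 30184144 to 30186078, plus strand). The adjusted p was 0.115 without vehicle replicate 1, 0.0910 without vehicle replicate 3, and 0.0833, 0.0893 and 0.0511 without FF-10501-01 replicates 1, 2 and 3.

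Cox7a2l, a relative of Cox7a2 that links complexes III and IV into supercomplexes, fell. It measured 165, 173 and 162 FPKM in FF-10501-01 cells against 192, 183 and 185 FPKM in vehicle cells, each treated library below each vehicle library. The fold change on the log2 scale was -0.16 (SE 0.0411, adjusted p = 0.0373, limma). The C57BL/6 strain is known to carry a short form of this protein, which transcript levels do not distinguish. The gene lies on chromosome 17 (GRCm38, 83501918 to 83517330, minus strand), and the adjusted p was 0.116 without vehicle replicate 1, 0.0850 without vehicle replicate 3, 0.0921 without FF-10501-01 replicate 1 and 0.123 without FF-10501-01 replicate 3. Cox7a2, the broadly expressed form, averaged 161 ± 11.9 FPKM in FF-10501-01 cells and 152 ± 11.9 FPKM in vehicle cells (SD, n = 3 each) and did not pass (log2 fold change 0.08, adjusted p = 0.462, limma).

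For the other subunits with tissue-specific forms, the broadly expressed form was abundant and did not pass. Cox6a1 averaged 306 ± 5.25 FPKM in FF-10501-01 cells and 292 ± 12.4 FPKM in vehicle cells (SD, n = 3 each), with a log2 fold change of 0.07 (adjusted p = 0.289, limma). Cox6b1 averaged 328 FPKM in FF-10501-01 cells and 341 FPKM in vehicle cells (log2 fold change -0.06, adjusted p = 0.324, limma). Ndufa4 averaged 278 FPKM in FF-10501-01 cells and 293 FPKM in vehicle cells (log2 fold change -0.07, adjusted p = 0.260, limma), and it was first named as a complex I subunit but is now counted in complex IV. Cox8a measured 306, 331 and 334 FPKM in FF-10501-01 cells and 318, 339 and 314 FPKM in vehicle cells, with a log2 fold change that was near zero and took either sign under other scalings (0.01 by the median of ratios, 0.02 after rescaling to TPM).

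All 7 entries below the FPKM minimum belonged to complex IV and were such alternative forms. Cox4i2, the form known from lung and hypoxia, lay just outside the minimum at a mean of 0.989 FPKM, with 0.545, 1.08 and 0.559 FPKM in FF-10501-01 cells and 1.01, 0.823 and 1.92 FPKM in vehicle cells. Cox6a2 (muscle form) was above 0 in 1 library, FF-10501-01 replicate 1, at 0.103 FPKM, and Cox6b2 (testis form) in 1 library, vehicle replicate 3, at 0.136 FPKM. Cox7b2, Cox8b, Cox8c and Ndufa4l2 were listed at 0 in all 6 libraries. The least abundant entries kept were Cox7a1, at a mean of 3.49 FPKM, and Atp5s, at a mean of 4.05 FPKM.

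**Figure D3:**
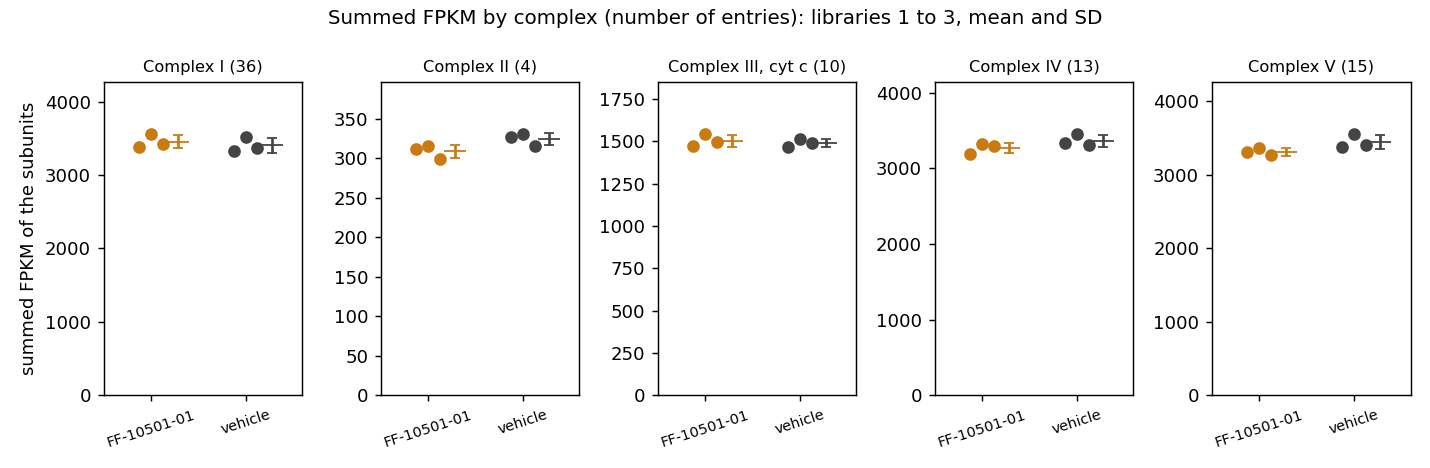
Summed FPKM of the subunits of each complex in each library (points), with the mean and SD of each group of 3 libraries (bars); axes start at 0. The groups overlap for complexes I, II, III and IV, whereas for complex V the FF-10501-01 libraries (3265 to 3366 FPKM) lie below the vehicle libraries (3378 to 3550 FPKM).

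Complex V, ATP synthase, held 3 of the 6 entries that fell (20.0% of its subunits, beside 7.46% lower among all entries tested). Its 15 subunits summed to 3308, 3366 and 3265 FPKM in FF-10501-01 libraries and to 3378, 3550 and 3402 FPKM in vehicle libraries, a gap that was small beside the spread within vehicle. For 53.3% of the subunits the groups stood apart (1 higher, 7 lower), compared with 38.8% of all entries tested. An unadjusted p under 0.05 in limma was found for 5 of the 15 subunits, and for 32.8% of all entries. The median log2 fold change over the 15 subunits was -0.04. By structural part it was -0.09 for the 5 subunits of the catalytic F1 head, -0.16 for the 3 genes of the c-ring, 0.05 for the 4 peripheral stalk subunits and 0.02 for the 3 small membrane subunits. In limma 0 peripheral stalk and 0 small membrane subunits passed, with 0 at an unadjusted p under 0.05 in either part.

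Atp5a1, the alpha subunit of the F1 head, fell. It measured 332, 328 and 309 FPKM in FF-10501-01 cells against 386, 379 and 369 FPKM in vehicle cells, with a wide gap between the groups. Its log2 fold change of -0.23 (SE 0.0406, adjusted p = 0.0153, limma) had the smallest adjusted p among OXPHOS entries. The gene lies on chromosome 18 (GRCm38, 77773729 to 77782869, plus strand), and its exons share 129 bases with Haus1 on the opposite strand. The adjusted p was 0.0577 with vehicle replicate 1 left out and 0.0588 with FF-10501-01 replicate 3 left out, and the call was kept when any other library was left out.

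Atp5b, the catalytic beta subunit that pairs with alpha in the F1 head, was the most abundant OXPHOS transcript in FPKM and did not pass. It averaged 498 ± 14.2 FPKM in FF-10501-01 cells and 532 ± 27.0 FPKM in vehicle cells (SD, n = 3 each), with a log2 fold change of -0.09 (adjusted p = 0.198, limma). All 3 treated libraries lay below all 3 vehicle libraries. The F1 head as a whole summed to 1377, 1385 and 1336 FPKM in FF-10501-01 libraries and to 1453, 1510 and 1427 FPKM in vehicle libraries.

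The c subunit forms the rotating ring of the enzyme, and Atp5g1, Atp5g2 and Atp5g3 encode the same mature protein behind different import sequences. The starts of these genes are shown because all 3 gave lower values in FF-10501-01 cells. Each line covers 250 bases before and 50 bases after the start annotated by RefSeq on GRCm38.p6, read on the minus strand. Capitals mark the letters GCATGCG, the core of the motif of NRF-1, a factor known to act on many respiratory genes. The windows are chr2:73911277-73911576 for Atp5g3, chr15:102670998-102671297 for Atp5g2 and chr11:96075582-96075881 for Atp5g1. Atp5g2 held these letters on both strands in 1 overlapping run, just before its start, and the windows of Atp5g3 and Atp5g1 did not hold them.
Atp5g3: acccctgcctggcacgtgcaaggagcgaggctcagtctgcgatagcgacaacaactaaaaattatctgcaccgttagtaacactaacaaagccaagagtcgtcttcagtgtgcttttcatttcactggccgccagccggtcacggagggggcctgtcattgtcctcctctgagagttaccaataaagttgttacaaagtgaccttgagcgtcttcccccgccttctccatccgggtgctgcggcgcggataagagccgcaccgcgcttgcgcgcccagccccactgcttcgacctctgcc
Atp5g2: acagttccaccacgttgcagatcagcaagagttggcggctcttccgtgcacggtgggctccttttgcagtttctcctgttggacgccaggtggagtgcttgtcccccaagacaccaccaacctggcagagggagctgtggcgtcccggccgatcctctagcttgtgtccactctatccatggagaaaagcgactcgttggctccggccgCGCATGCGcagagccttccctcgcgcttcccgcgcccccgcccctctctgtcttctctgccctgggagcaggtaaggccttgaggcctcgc
Atp5g1: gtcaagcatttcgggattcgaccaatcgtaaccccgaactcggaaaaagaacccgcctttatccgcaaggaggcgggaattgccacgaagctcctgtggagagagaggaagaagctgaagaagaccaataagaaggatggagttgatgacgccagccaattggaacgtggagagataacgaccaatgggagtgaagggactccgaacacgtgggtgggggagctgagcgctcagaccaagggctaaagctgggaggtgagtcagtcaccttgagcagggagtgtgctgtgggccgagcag

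Atp5g3 and Atp5g2 fell, and Atp5g1 did not pass. Atp5g3 measured 125, 126 and 116 FPKM in FF-10501-01 cells against 146, 144 and 137 FPKM in vehicle cells (log2 fold change -0.22, SE 0.0479, adjusted p = 0.0250, limma). Atp5g2, the most abundant of the 3 in FPKM, measured 220, 231 and 218 FPKM in FF-10501-01 cells against 250, 256 and 244 FPKM in vehicle cells (log2 fold change -0.16, SE 0.0398, adjusted p = 0.0312, limma). For both genes every treated library lay below every vehicle library. Atp5g1 measured 106, 106 and 99.2 FPKM in FF-10501-01 cells against 116, 117 and 108 FPKM in vehicle cells (log2 fold change -0.13, SE 0.0483, adjusted p = 0.0968, limma), also without overlap.

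Summed over the 3 genes, c subunit transcripts amounted to 452, 463 and 433 FPKM in FF-10501-01 libraries and to 513, 517 and 489 FPKM in vehicle libraries. The mean was 449 ± 15.4 FPKM in FF-10501-01 cells and 506 ± 15.2 FPKM in vehicle cells (SD, n = 3 each), with no overlap. Leaving out vehicle replicate 1 or FF-10501-01 replicate 3 ended the calls of Atp5g3 (adjusted p = 0.0835 and 0.0827, limma) and of Atp5g2 (adjusted p = 0.0922 and 0.110, limma). Atp5g2 was also lost without vehicle replicate 2 (0.0607), vehicle replicate 3 (0.0599) or FF-10501-01 replicate 1 (0.0819). Atp5sl, outside the enzyme core, averaged 15.6 FPKM in FF-10501-01 cells and 16.5 FPKM in vehicle cells and did not pass (adjusted p = 0.424, limma).

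**Figure D4:**
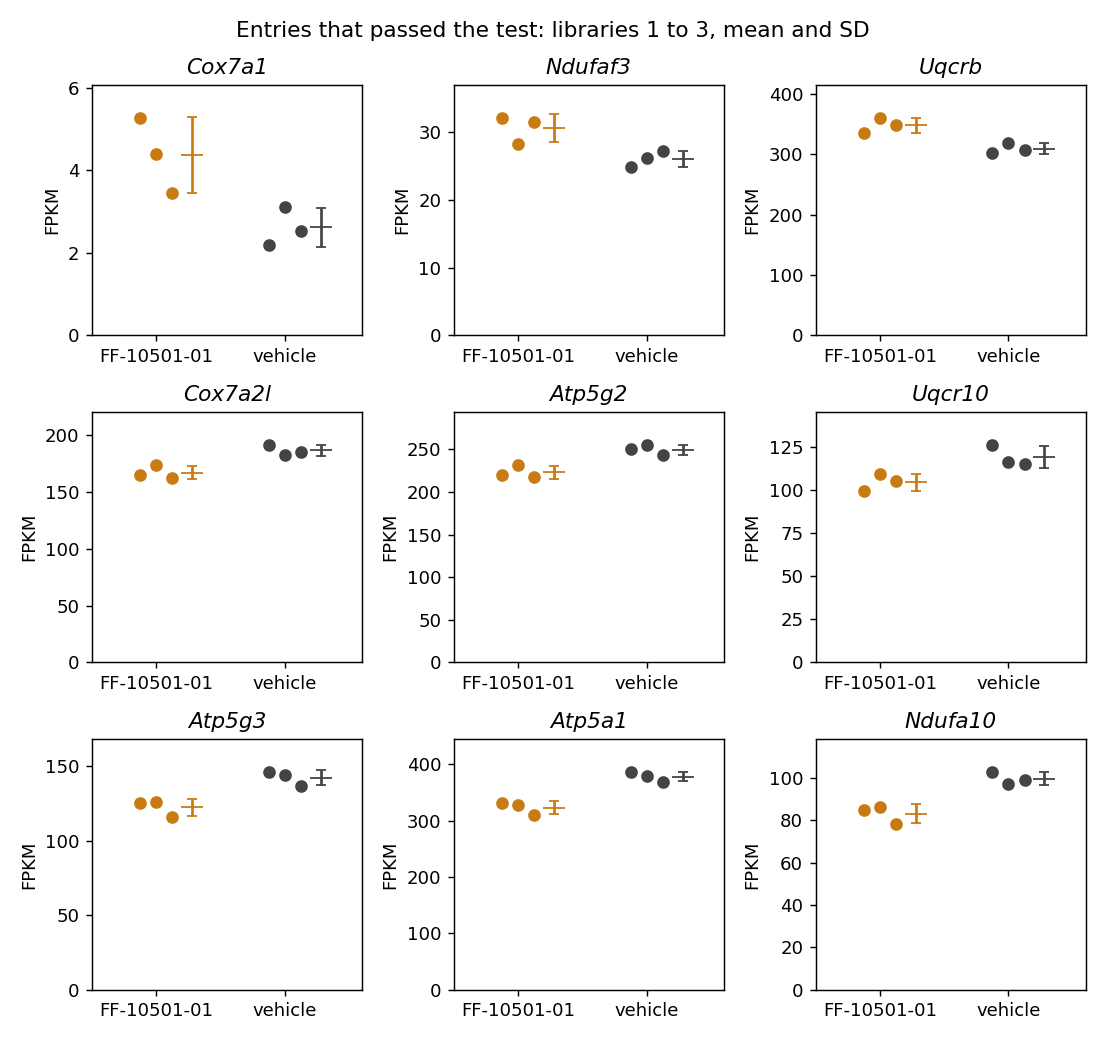
FPKM in each library of the 9 entries that passed, FF-10501-01 left of vehicle in each panel, with the mean and SD of each group of 3 libraries. Points of the 2 groups do not overlap in any panel, and all entries but Cox7a1 (2.196 to 5.28 FPKM) and Ndufaf3 (24.8 to 32.2 FPKM) lie above 75 FPKM.

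The same windows were searched on both strands for short core letters of 3 factors known to act on nuclear OXPHOS genes, over 72 entries with a RefSeq window. These letters were set after matches of longer forms had been seen. The letters of the NRF-1 core (GCATGCG) were found in 18.1% of OXPHOS windows, compared with 4.01% of 27025 genes in the table of windows and 7.94% of 7334 genes among the tested entries. Those of the GABP core (CCGGAAG) were found in 23.6% of OXPHOS windows, compared with 9.93% of all genes and 22.0% of tested ones. Those of the YY1 core (AAGATGG) were found in 16.7% of OXPHOS windows, compared with 7.28% of all genes and 9.01% of tested ones.

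By complex, the NRF-1 letters occurred in 4 of 14 complex V windows and 3 of 32 complex I windows, and the YY1 letters in 3 and 7 of them. Among the 7 windows of entries that passed, 1 held the NRF-1 letters and 0 held either of the others. Among the 65 windows of entries that did not pass, 12 held the NRF-1 letters, 17 the GABP letters and 12 the YY1 letters. The cores are different runs of letters and were counted separately. A match in letters is not a shown binding site.

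Related genes from lists chosen with earlier results of these data known were read against the same background of 14.9%. Of 27 other assembly factors tested, 2 rose and 0 fell in limma, with a median log2 fold change of 0.00 and 6 at an unadjusted p under 0.05. Bcs1l, which inserts the iron-sulfur protein into complex III, measured 20.6, 20.5 and 20.8 FPKM in FF-10501-01 cells against 15.7, 18.2 and 17.1 FPKM in vehicle cells (log2 fold change 0.26, adjusted p = 0.0264, limma). Cox19, a factor for copper delivery to complex IV, averaged 26.4 FPKM in FF-10501-01 cells and 22.2 FPKM in vehicle cells (log2 fold change 0.24, adjusted p = 0.0303, limma).

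Among 7 carriers and uncoupling proteins tested, 2 fell and 0 rose, with a median log2 fold change of -0.09. Slc25a5, an exchanger of ADP and ATP across the inner membrane, measured 532, 539 and 519 FPKM in FF-10501-01 cells against 584, 615 and 572 FPKM in vehicle cells (log2 fold change -0.16, adjusted p = 0.0357, limma). Slc25a3, the phosphate carrier, measured 156, 163 and 151 FPKM in FF-10501-01 cells against 179, 191 and 169 FPKM in vehicle cells (log2 fold change -0.20, adjusted p = 0.0405, limma). Slc25a4, another exchanger of ADP and ATP that was named after its values were seen, did not pass, and its groups overlapped (log2 fold change -0.28, adjusted p = 0.0998, limma). Among 20 genes of other entries into the chain (median -0.05), 1 fell, the ubiquinone synthesis enzyme Coq7 (log2 fold change -0.22, adjusted p = 0.0336, limma), and 0 rose.

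Of 14 outer membrane, inner membrane and matrix proteins often used as measures of mitochondrial mass, 3 fell and 1 rose, with a median log2 fold change of -0.08. Hspa9, the matrix Hsp70 chaperone, averaged 108 ± 5.88 FPKM in FF-10501-01 cells and 133 ± 5.81 FPKM in vehicle cells (SD, n = 3 each; log2 fold change -0.29, adjusted p = 0.0158, limma). Tomm20, an import receptor, and Phb2, a prohibitin of the inner membrane, had log2 fold changes of -0.23 and -0.17 (adjusted p = 0.0225 and 0.0254, limma). Hspe1, a chaperonin partner, rose by 0.20 on the log2 scale (adjusted p = 0.0340, limma).

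Regulators of these genes showed calls in both directions. Of 10 genes for the upkeep and transcription of mitochondrial DNA, 0 passed in limma and 2 had an unadjusted p under 0.05, with a median log2 fold change of -0.10. Tfam, the factor that packs and transcribes mitochondrial DNA, averaged 8.03 FPKM in FF-10501-01 cells and 8.63 FPKM in vehicle cells (log2 fold change -0.09, adjusted p = 0.335, limma). Of 14 nuclear regulators, 2 rose and 1 fell, with a median log2 fold change of 0.08. Nfe2l2, a regulator of the oxidative stress response, and Ppard, a nuclear receptor of fatty acid metabolism, had log2 fold changes of 0.39 and 0.37 (adjusted p = 0.0346 and 0.0373, limma). The merged entry of Nolc1 and Pprc1, of which Pprc1 is a coactivator of the PGC-1 family, averaged 69.7 FPKM in FF-10501-01 cells and 81.3 FPKM in vehicle cells (log2 fold change -0.22, adjusted p = 0.0148, limma).

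Nrf1 (log2 fold change 0.07, adjusted p = 0.442, limma), Gabpa (-0.12, adjusted p = 0.119) and Myc (0.25, adjusted p = 0.134) did not pass. The coactivators Ppargc1a and Ppargc1b, at means of 0.0122 and 0.169 FPKM, were below the minimum and were not tested. All 12 related genes that passed lost the call when vehicle replicate 1 was left out (adjusted p = 0.0505 to 0.116, limma), and likewise FF-10501-01 replicate 3 (0.0511 to 0.136). Calls were also lost for 4 of the 12 without vehicle replicate 2 (0.0617 to 0.0736), 7 without vehicle replicate 3 (0.0535 to 0.102), 9 without FF-10501-01 replicate 1 (0.0507 to 0.0887) and 9 without FF-10501-01 replicate 2 (0.0592 to 0.0954). With no filter on low FPKM 8 of the 12 lost the call (0.0583 to 0.0945), with eBayes lacking a trend also 8 (0.0506 to 0.0838), and after quantile normalization Slc25a5 did (0.0521).

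OXPHOS transcripts are short, with a median length of 755 bases for the 81 entries with an annotated length, compared with 2586 bases over 9301 tested entries. Across these 81 genes, which share the same 6 libraries and are not independent, Pearson's r of the log2 fold change with the log of the length was -0.26, and over all tested entries it was -0.02. Among transcripts of up to 750 bases, the median log2 fold change was 0.01 for 40 OXPHOS entries and -0.02 for 503 entries of all kinds.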

How the data were processed

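RNA-Seq of GFP+ MLL-AF9 cells was analysed in 3 FF-10501-01 and 3 vehicle libraries. The authors made strand-specific libraries, trimmed the reads (cutadapt 1.8.1), mapped them to GRCm38 (TopHat2 2.1.1) and deposited FPKM per gene (Cufflinks 2.2.1). The gene annotation and strand setting are not given in the sources used here. Read totals were not used here, so no counting interval is given, and Cuffdiff, the test of the study, was not run because it needs reads. All 6 columns were used (0 left out). The table holds 394 merged entries, each kept as 1 entry.

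FPKM were analysed as log2(FPKM + 1) over the 11004 entries with a mean of at least 1 FPKM in R 4.3.3 with limma 3.58.1. The model had treatment as its only term, with eBayes and a trend of variance on level, and tests were two-sided. Benjamini-Hochberg adjusted p-values under 0.05 counted as passed. Figures were drawn with Python 3.11.15 and matplotlib 3.10.9. The script was tested on simulated data. Positions come from a GENCODE annotation of GRCm38 and windows at gene starts from RefSeq (GRCm38.p6). Relative depth came from entries at or below 0.3 FPKM. After scaling by depth, the ratio between libraries was compared with ratios of small whole numbers. It matched 1 of these, to within 0.01 of the natural log, for 73.7% to 75.0% of 1944 to 2217 such entries.

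OXPHOS entries and gene lists were chosen with earlier results of these data known. Named were, per complex, every entry that passed (up to 6 per direction by p), the most abundant one that did not, isoforms of the same subunit, Cycs and Cyc1. In related lists, up to 3 per direction that passed were named, with Tfam, Ppargc1a, Ppargc1b, Nrf1, Gabpa and Myc. Each result was recomputed with 0.1 added in place of 1, with every entry above 0 or a minimum of 5 FPKM, with median-of-ratios, TPM or quantile scaling, with a trend on transcript length removed, with eBayes lacking the trend, with column number as a replicate block, and without each library.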

Additional observations from a re-analysis of the deposited data

How the results depend on the processing

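The number of OXPHOS entries called depended on the setting. When no filter was applied, limma gave 0 higher and 2 lower (12 and 14 at an unadjusted p under 0.05), and eBayes lacking a trend also gave 0 higher and 2 lower (6 and 11 at an unadjusted p under 0.05). After rescaling to TPM, 5 were higher. With each library left out, 0 to 4 were higher and 0 to 5 lower. Both counts were 0 when vehicle replicate 1 or FF-10501-01 replicate 3 was left out, and 0 were higher and 3 lower when vehicle replicate 3 was (5 and 13 at an unadjusted p under 0.05). Leaving out FF-10501-01 replicate 1 gave 1 higher and 3 lower, and FF-10501-01 replicate 2 gave 1 higher and 5 lower. Over all entries, 337 were higher and 244 lower with no filter, and 586 and 512 with eBayes lacking a trend. The median log2 fold change of OXPHOS entries stayed between -0.04 and -0.01 on 2 decimals.

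The column numbers did not pair the libraries. Deviations of same-numbered libraries correlated at -0.011, -0.074 and -0.036, and no library correlated best with its own number. With the column number as a replicate block, 1 OXPHOS entry was higher and 4 were lower (650 and 602 over all entries). The calls of Cox7a1 (adjusted p = 0.0592, limma), Cox7a2l (0.0651), Ndufaf3 and Uqcr10 were then lost, and among related genes those of Coq7, Cox19, Hspe1 and Ppard (0.0528 to 0.0639), while Myc passed (0.0313).

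Some values near zero changed sign, and none of these passed under any setting. Uqcrh was 0.0028 by the median of ratios, 0.0083 on TPM and -0.033 to 0.0040 with each library left out. Cox8a was 0.011 by the median of ratios, 0.017 on TPM, 0.018 after quantile normalization and -0.024 to 0.039 with each library left out. With each library left out, Ndufaf2 ranged over -0.058 to 0.23 and Impdh2 over -0.078 to 0.12. The causes were not tested.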
